A study of Sus scrofa with 150 samples.

Results

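The genes described here make bile acids from cholesterol or control their making: CYP7A1, CYP8B1, CYP27A1, CYP7B1, AKR1D1, BAAT, NR1H4 and NR0B2. A probe set belonged to them when the annotation of the array gave it one of these 8 symbols and no other. Of the 8 genes, 3 were measured, with 5 probe sets among the 23999 tested, and the annotated probe sets of the array covered 6765 symbols in all. CYP7A1 (Entrez ID 448985) and CYP8B1 (403328) had 1 probe set each. CYP27A1 (100126282) had 3, called here set 1 (mean log2 value 11.97), set 2 (8.64) and set 3 (9.85). CYP7B1, AKR1D1, BAAT, NR1H4 and NR0B2 had no probe set under these symbols and were not analysed here.

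The livers came from 150 commercial crossbred pigs, Pix(DLxDE) in the labels, slaughtered at a mean end weight of 110 kg. All belong to one untreated group without controls, with 1 Affymetrix Porcine Genome Array per pig. Each pig carries a fat area over the long back muscle, from 8.1 to 26.7 cm2, and a drip loss of that muscle, from 1.45 to 10.82% of its weight after 48 h of hanging at 4 °C. The labels read here do not state sex, age, family, feeding, hour of slaughter or array batch, and they leave the number in each pig's title unexplained. Two-sided tests over pigs therefore measure the spread between these animals, and their number limits the precision.

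Bile acids are made in hepatocytes by a classic and an alternative route. The classic route opens with CYP7A1, the cholesterol 7-alpha-hydroxylase that sets its rate. CYP8B1, the sterol 12-alpha-hydroxylase, acts on the branch that leads to cholic acid. CYP27A1, a mitochondrial sterol 27-hydroxylase, opens the alternative route and also oxidises the side chain in the classic one. Bile acids returning from the gut repress CYP7A1, and its transcript follows feeding and the time of day. DBP, a transcription factor driven by the circadian clock, is known from rodents as a binder of the Cyp7a1 promoter.

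Values are log2 signals per probe set. The lowest value in the table, 4.09, was a floor that held 2.75% of all values, so differences near it are understated. Array medians ran from 5.79 to 6.09, and 13 arrays stood apart from the others, their median correlation with the rest lying over 3 median absolute deviations below that of all arrays. Hepatocyte markers were bright: ALB averaged 13.93, APOA1 13.84 and SERPINA1 13.61. Of the marker lists for other cells, SOX9 of the bile duct (4.46) and LUM of fibroblasts (4.53) lay near the floor, while CD14 of macrophages (10.69) and ACTA2 of stellate cells and vessels (10.01) did not. In whole tissue, fewer cells of a type and less RNA per cell cannot be told apart.

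CYP7A1 was among the most variable transcripts of these livers. It ran from 4.09 through a median of 8.42 to 11.06 on the log2 scale. The 90th percentile of pigs read 15.0-fold above the 10th. Only 1 liver lay at the floor and 7 lay within 1 log2 unit of it, so the wide range was not set by the floor alone. The SD was 1.55 (n = 150), the 24th largest of 23999 probe sets, against a median SD of 0.26 over all of them and 0.12 to 0.27 for the 9 spike-in hybridization controls. Without the 13 arrays that stood apart the SD was 1.51, and after quantile normalization 1.55.

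CYP8B1 was dim and, for most livers, narrow. It ran from 4.53 through a median of 5.50 to 7.54. The highest liver stood alone, since the second highest read 6.64 and the 90th percentile 5.84. The SD was 0.32 (n = 150), larger than that of 67.8% of probe sets. Its mean of 5.51 lay below the lowest array median, so much of its range was in the dim part of the scale.

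CYP27A1 varied far less between animals than CYP7A1 on each of its 3 probe sets. By SD, set 1 exceeded 35.2% of all probe sets, set 2 76.5% and set 3 76.8%. Set 1 ran from 11.06 through 11.99 to 12.57 with an SD of 0.23. Set 2 ran from 7.40 through 8.70 to 9.35 with an SD of 0.36. Set 3 ran from 8.80 through 9.94 to 10.77 with an SD of 0.36. From the lowest to the highest liver these are 2.85-fold, 3.86-fold and 3.92-fold differences. DBP lay between CYP7A1 and these enzymes in spread, running from 6.06 through 8.05 to 9.74 with an SD of 0.65.

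**Figure D1:**
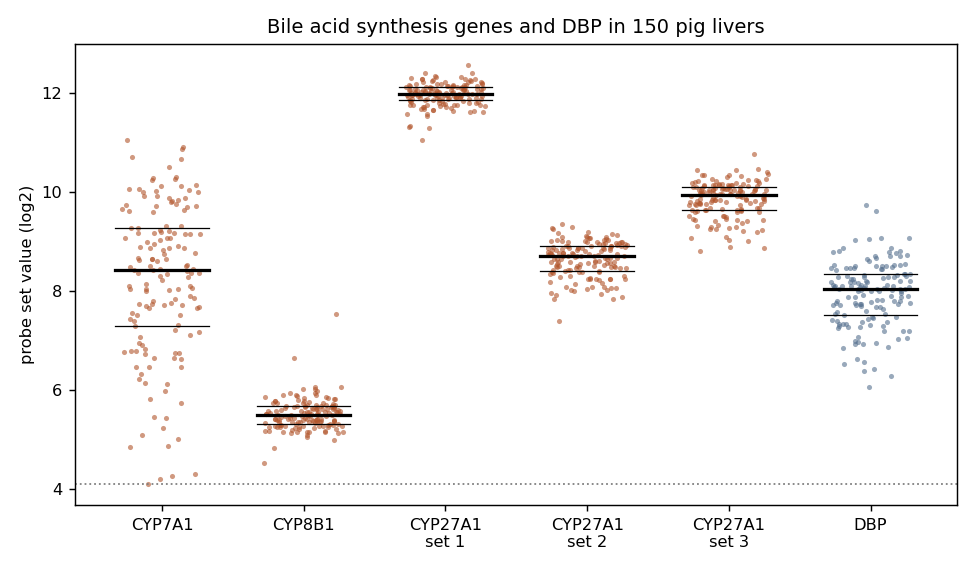
Log2 value (y axis) of the 5 probe sets of bile acid synthesis genes and of DBP (x axis) in 150 pig livers, 1 point per liver; thick lines mark medians, thin lines quartiles, and the dotted line the floor of 4.09. CYP7A1 runs from the floor to 11.06, while each CYP27A1 probe set stays within 2 log2 units of its median. In CYP8B1 1 liver stands alone at the top.

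The title numbers were split into 10 blocks of 6 to 24 pigs. Blocks held 9.71% of the variance of CYP7A1, 5.12% of that of CYP8B1, and 24.3%, 19.4% and 16.9% of that of CYP27A1 sets 1, 2 and 3. The block means of CYP7A1 ran from 7.28 to 9.32. CYP27A1 set 1 fell with the title number itself, with a slope of -0.09 per SD (SE 0.017, limma adjusted p = 9.99e-05), in a fit that called 20.6% of all probe sets.

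Measures of the array as a whole also moved with these genes. With the array median, in a fit that called 59.1% of all probe sets, CYP7A1 (r = 0.300), CYP8B1 (r = 0.329) and CYP27A1 set 1 (r = 0.275) were higher, and sets 2 and 3 were not called. The difference between the 3 prime and 5 prime ends of beta-actin rises as RNA degrades. On it CYP27A1 set 3 fell by 0.13 per SD (r = -0.362, limma adjusted p = 0.000217), where 13.5% of all probe sets were called. On a second beta-actin pair set 2 (r = -0.414) and set 3 (r = -0.528) both fell, where 22.8% were called. On the same difference of GAPDH, where 53.4% were called, sets 2 and 3 fell by 0.065 (limma adjusted p = 0.0485) and 0.11 (limma adjusted p = 0.000644), and set 1 rose by 0.045 (limma adjusted p = 0.0290). DBP itself fell by 0.14 on the second beta-actin difference (limma adjusted p = 0.0313) and by 0.11 on the array median (limma adjusted p = 0.0495). CYP7A1 had r = 0.00489 and 0.0236 with the 2 beta-actin measures, and CYP8B1 -0.0488 and 0.0522, and neither was called on these measures or on that of GAPDH.

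The first comparison asked whether the bile acid genes moved with DBP. CYP7A1 and CYP27A1 sets 2 and 3 were higher in livers with more DBP, and CYP8B1 was lower. Of the 5 probe sets 4 passed limma's test (called: Benjamini-Hochberg adjusted p under 0.05 over the whole table), beside 20.9% of all probe sets tested, so a call on DBP was common. Slopes are given per SD of DBP.

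CYP7A1 rose by 0.50 on the log2 scale per SD of DBP (SE 0.119, limma adjusted p = 0.000932). In size this slope exceeded those of 99.98% of all probe sets, a ranking in which the wide spread of CYP7A1 takes part. The correlation was moderate: Pearson's r was 0.323, with a 95% interval of 0.171 to 0.459 (permutation p = 5.00e-05), and Spearman's rho was 0.233 (permutation p = 0.00459). The livers lowest in DBP included several near the floor of CYP7A1, and r was 0.251 once the 2 pigs most distant from the median DBP were left out. Within blocks of title numbers r was 0.338, and it was above 0 in 9 of 10 blocks, from -0.00814 to 0.477.

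CYP8B1 fell by 0.076 per SD of DBP (SE 0.025, limma adjusted p = 0.0205), with an r of -0.240 (permutation p = 0.00341) and a rho of -0.242 (permutation p = 0.00308). This call was lost with the array median in the model (slope -0.06, limma adjusted p = 0.0851), when the 2 pigs most distant in DBP were left out (-0.057, limma adjusted p = 0.0944) and without the 13 arrays that stood apart (-0.049, limma adjusted p = 0.237).

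The CYP27A1 probe sets did not give a single answer. Set 3 rose by 0.14 (SE 0.027, limma adjusted p = 4.80e-05), with r = 0.387 and rho = 0.376 (permutation p = 1e-05 for both, the smallest the resamples can give). Set 2 rose by 0.13 (SE 0.028, limma adjusted p = 0.000316), with r at 0.351 (permutation p = 1e-05) and rho at 0.329 (permutation p = 5.00e-05). Set 1, the brightest, had a slope of 0.035 (SE 0.018, limma adjusted p = 0.172), with r at 0.153 (permutation p = 0.0625) and rho at 0.128 (permutation p = 0.121), and was not called.

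The arrays that stood apart bear on these 2 sets. Median set 2 was 8.24 on those 13 arrays and 8.71 on the others, median set 3 was 9.25 and 9.96, and median DBP was 7.31 and 8.07. For CYP7A1 the medians were 8.22 and 8.44. Without these arrays 9.6% of all probe sets were called on DBP. Set 3 stayed called (slope 0.076, limma adjusted p = 0.0448), set 2 did not (0.069, limma adjusted p = 0.0940), and CYP7A1 did (0.43, limma adjusted p = 0.0104). With the second beta-actin difference in the model the slope of CYP7A1 on DBP was 0.53 (limma adjusted p = 0.000627), and with the array median it was 0.60 (limma adjusted p = 2.20e-05). With the same beta-actin difference the slopes of sets 2 and 3 were 0.098 (limma adjusted p = 0.00437) and 0.10 (limma adjusted p = 0.00111).

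**Figure D2:**
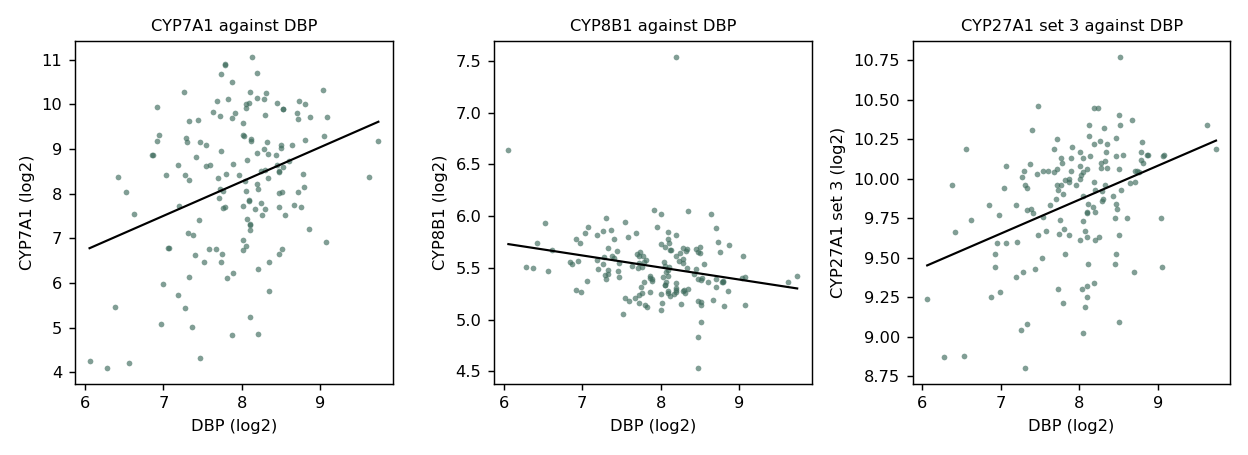
Log2 value of CYP7A1, CYP8B1 and CYP27A1 set 3 (y axes, each on its own scale) against the log2 value of DBP (x axis), 1 point per liver of 150, with least-squares lines. CYP7A1 (r = 0.323) and set 3 (r = 0.387) rise with wide scatter, and CYP8B1 (r = -0.240) falls with 1 liver far above the rest.

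The first 5 principal components of the whole table held 42.8% of its variance, 46.2% of that of CYP7A1 and 42.6% of that of DBP, but 25.1% of that of CYP8B1 and 27.8% of that of CYP27A1 set 1. With these components as covariates 0 of the 5 probe sets were called, beside 3.76% of all probe sets. The slope of CYP7A1 on DBP was then 0.11 (SE 0.123, limma adjusted p = 0.743) and that of set 3 was 0.074 (limma adjusted p = 0.225). What these components reflect was not tested.

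DBP is an output of the clock, so the clock genes are given beside it. Of 7 measured, 3 rose and 2 fell with DBP, where 8.97% of all probe sets rose and 11.9% fell. ARNTL, the positive partner of the clock, fell by 0.38 (r = -0.668). NFIL3, a repressor at the DNA sites that DBP uses, fell by 0.33 (r = -0.571). CRY2, a negative clock factor, rose by 0.20 (r = 0.573), and USP2, a deubiquitinase with a daily rhythm, by 0.19 (r = 0.326). The median slope over the 7 genes was 0.029, against -0.0047 over all probe sets. These counts were also 3 and 2 without the arrays that stood apart (4.10% and 5.50% of all probe sets) and with 5 principal components in the model (2.44% and 1.32%).

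CYP7A1 itself did not move with most of these clock genes. In the fit on CYP7A1, 0 of the 7 rose and 2 fell, where 15.6% of all probe sets rose and 8.72% fell. NFIL3 fell by 0.15 per SD of CYP7A1 (limma adjusted p = 0.00816), and so did PER1, a negative clock factor, by 0.10 (limma adjusted p = 0.00952), although PER1 rose with DBP (slope 0.11, limma adjusted p = 0.00647). The second probe set of PER1 had r = -0.00088 with CYP7A1 and 0.131 with DBP. ARNTL, with the strongest relation to DBP among the 7, had r = 0.00899 with CYP7A1 (limma adjusted p = 0.953).

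Among genes of bile acid and sterol transport, 3 of 7 rose with DBP and 1 fell, where 8.97% of all probe sets rose and 11.9% fell. A single falling gene of 7 is no clear excess over that share. SLCO2B1, an organic anion carrier, rose by 0.13 (limma adjusted p = 4.89e-05), ABCC2, an exporter of conjugates into bile, by 0.11 (limma adjusted p = 0.00188), and SLC10A1, the sodium-dependent importer of bile acids, by 0.10 (limma adjusted p = 0.00890). ATP8B1, a lipid flippase of the canalicular membrane, fell by 0.15 (limma adjusted p = 0.0186). Without the arrays that stood apart the counts were 1 and 0, where 4.10% of all probe sets rose and 5.50% fell. Of the 7 other bile acid enzymes, 1 rose in the fit on all arrays, no clear excess over the 8.97% of all probe sets. This was ACOT8, a peroxisomal thioesterase, with a slope of 0.091 (limma adjusted p = 0.00113).

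Of 12 regulators 2 rose and 1 fell with DBP, where 8.97% of all probe sets rose and 11.9% fell. The 1 that fell is no excess over that share. CEBPA, a hepatocyte transcription factor, rose by 0.23 (r = 0.441), but its second probe set had r = -0.249. NR1H3, the oxysterol receptor LXR alpha, rose by 0.054 (limma adjusted p = 0.0393). CEBPB, the acute-phase relative of CEBPA, fell by 0.14 (limma adjusted p = 0.000537). Of 10 genes of cholesterol supply, 1 rose, the lipoprotein receptor SCARB1, by 0.089 (limma adjusted p = 0.000831). That count is close to the 8.97% of all probe sets that rose. With 5 principal components in the model this list instead had 0 rising and 6 falling, beside 2.44% and 1.32% of all probe sets.

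The second comparison set the bile acid genes against fat area. In limma 0 of the 5 probe sets were called at an adjusted p under 0.05, beside 0.125% of all probe sets, and 1 of the 5, CYP7A1, had an unadjusted p under 0.05, as did 1699 of the 23999 tested. CYP7A1 ran from 4.21 through 8.07 to 10.67 in the 30 pigs with the smallest fat area and from 4.86 through 9.10 to 10.71 in the 30 with the largest. The tails overlapped almost entirely, with means of 7.74 ± 1.91 and 8.82 ± 1.30 (SD, n = 30 each), a 2.10-fold difference. Over all pigs r was 0.275 (permutation p = 0.000480, 95% interval 0.121 to 0.417) and rho 0.234 (permutation p = 0.00380), but over the whole table the slope of 0.43 per SD (SE 0.121) missed the threshold (limma adjusted p = 0.148). Within blocks of title numbers r was 0.238, above 0 in 7 of 10 blocks.

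DBP also rose with fat area, by 0.22 per SD (SE 0.050, limma adjusted p = 0.0231, r = 0.332). With DBP in the model the slope of CYP7A1 on fat area was 0.29 (SE 0.124, unadjusted p = 0.0191, limma adjusted p = 0.737), where 0.0167% of probe sets were called. The Y-linked gene EIF1AY differed between the same tails, with means of 4.66 and 6.06. With EIF1AY in the model the slope of CYP7A1 was 0.47 (SE 0.131, limma adjusted p = 0.198). That model called 1 of 23999 probe sets on fat area, against 30 without EIF1AY. With DBP in the model as well, 0 were called, against 4 without EIF1AY. The slope of DBP on fat area with EIF1AY in the model is not given here.

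CYP8B1 had no detectable relation to fat area (r = -0.00623, 95% interval -0.166 to 0.154). For CYP27A1 sets 1, 2 and 3 r was 0.139, 0.143 and 0.133, with 95% intervals that all reached below 0 and up to 0.296 at most. The ratios of the tails were 1.01 for CYP8B1 and 1.05, 1.09 and 1.09 for the CYP27A1 sets. Over the lists of other bile acid enzymes, transport, regulators, clock and cholesterol supply, the smallest adjusted p on fat area was that of NFIL3 (slope -0.14, limma adjusted p = 0.301).

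**Figure D3:**
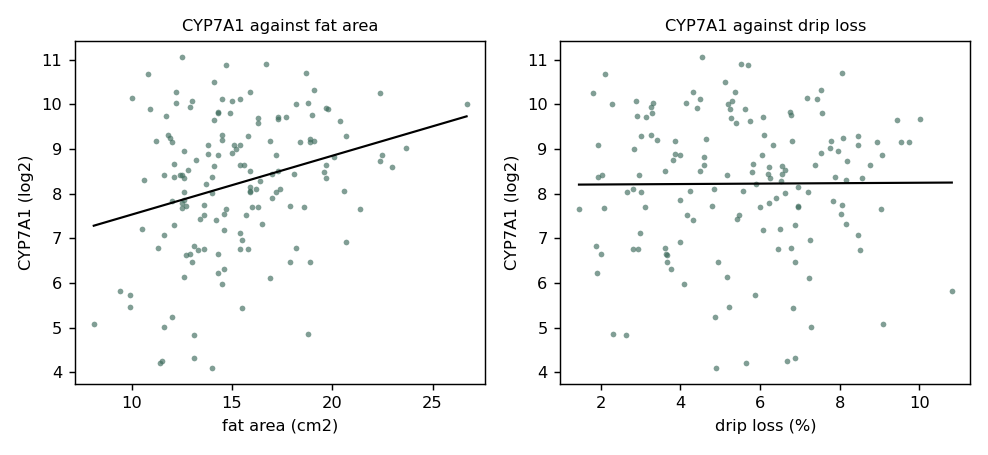
Log2 value of CYP7A1 (y axes) against fat area in cm2 and drip loss in % (x axes), 1 point per pig of 150, with least-squares lines. The line rises with fat area (r = 0.275) through a wide scatter at every fat area, and it is flat against drip loss (r = 0.00665).

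Against drip loss limma called 0 of the 5 probe sets and 0% of all probe sets at an adjusted p under 0.05. The smallest adjusted p in the table was 0.215, and 2638 probe sets had an unadjusted p under 0.05, among them 1 of the 5. CYP7A1 was flat, with r = 0.00665 (95% interval -0.154 to 0.167). The tails of 30 pigs had CYP7A1 means of 8.31 ± 1.57 at low and 8.51 ± 1.24 at high drip loss (SD, n = 30 each). CYP8B1 had r = 0.0595. CYP27A1 set 1 had r = 0.225 (permutation p = 0.00585) and a slope of 0.051 (SE 0.018, limma adjusted p = 0.330), while within blocks of title numbers r was 0.0694. Sets 2 and 3 had r = 0.0396 and 0.0111. The slopes on fat area and on drip loss were also compared in a single model, where 0.00833% of probe sets were called and 0 of the 5. For CYP7A1 fat area minus drip loss was 0.39 (SE 0.165, limma adjusted p = 0.537, unadjusted p = 0.0201).

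The third comparison was of the members with one another. CYP7A1 and CYP27A1 set 1 had a weak positive relation whose call did not last under several alternatives. In the first fits CYP8B1 was called with neither. In the fit on CYP7A1, 1 of the 4 other probe sets was called, beside 24.3% of all probe sets, which is no excess. Set 1 rose by 0.059 per SD of CYP7A1 (SE 0.018, limma adjusted p = 0.00940), with r = 0.261 (permutation p = 0.00132) and rho = 0.221 (permutation p = 0.00661). The call was lost without the 13 arrays that stood apart (slope 0.036, limma adjusted p = 0.153), with the array median in the model (0.044, limma adjusted p = 0.107) and with 5 principal components (0.024, limma adjusted p = 0.637), where 19.3%, 11.2% and 2.98% of all probe sets were called. Sets 2 and 3 had r = 0.168 and 0.175 with CYP7A1 (limma adjusted p = 0.118 and 0.0996). With the array median in the model, CYP27A1 set 3 (slope 0.086, limma adjusted p = 0.0413) and CYP8B1 (-0.071, limma adjusted p = 0.0453) were called on CYP7A1 in place of set 1.

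CYP8B1 and CYP7A1 had r = -0.107 (permutation p = 0.194) but rho = 0.0457 (permutation p = 0.581). The sign of their relation rested on 2 livers: without the 2 farthest from the median CYP8B1, the slope of CYP7A1 on CYP8B1 moved from -0.17 to 0.098, neither being called. In the fit on CYP8B1, which called 17% of all probe sets, limma called 0 of the 4, and 2 of the 4 had an unadjusted p under 0.05, as did 8084 of the 23998 tested. Those were CYP27A1 sets 2 and 3, with r = -0.182 and -0.180. Set 1 had r = 0.0764 with CYP8B1. In the fit on CYP27A1 set 1, which called 21.9%, CYP7A1 was called (slope 0.40, SE 0.121, limma adjusted p = 0.00974) and CYP8B1 was not (limma adjusted p = 0.538). The call of CYP7A1 was lost under 5 alternatives, among them leaving out the 2 extreme pigs (limma adjusted p = 0.0563), leaving out the 13 arrays (limma adjusted p = 0.116) and taking set 3, which had the largest SD, in place of set 1 (limma adjusted p = 0.0862).

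The 3 probe sets of CYP27A1 agreed only in part. Sets 2 and 3 followed each other closely, with r = 0.902 (permutation p = 1e-05). Set 1 had r = 0.527 with set 2 and 0.594 with set 3 (permutation p = 1e-05 for both). All 3 are annotated to CYP27A1, and which transcripts or ends each reads was not examined here.

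Several genes around CYP7A1 in the pathway rose with it. Of the 7 measured other enzymes of bile acid synthesis, 5 rose with CYP7A1 and 0 fell, where 15.6% of all probe sets rose and 8.72% fell. Their median slope was 0.12 per SD of CYP7A1, against 0.0051 over all probe sets. The enzymes of peroxisomal side-chain shortening were among them. AMACR, the racemase that prepares the side chain, rose by 0.21 (SE 0.058, limma adjusted p = 0.00454). SCP2, a sterol carrier and thiolase, rose by 0.19 (SE 0.037, limma adjusted p = 4.21e-05), and HSD17B4, the D-bifunctional protein, by 0.18 (SE 0.030, limma adjusted p = 1.71e-06). ACOX2, the oxidase for branched side chains, rose by 0.070 (limma adjusted p = 0.0103), and its second probe set had r = 0.147. CYP39A1, an oxysterol 7-alpha-hydroxylase, rose by 0.12 (limma adjusted p = 0.000407). CH25H, the cholesterol 25-hydroxylase, and ACOT8 had slopes of -0.032 and -0.038 and were not called. Among only the probe sets with a mean above 6, 5 of 6 of these enzymes rose, where 22.4% of such probe sets did. With an SD above 0.25 it was also 5 of 6, where 27.8% did. Without the arrays that stood apart 4 of the 7 rose, where 13.0% of all probe sets did. With 5 principal components in the model 0 of the 7 rose, where 2.10% did.

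Of the 7 transport genes 3 rose and 1 fell with CYP7A1, where 15.6% of all probe sets rose and 8.72% fell. A single falling gene of 7 is no clear excess over that share. ABCB11, the bile salt export pump, rose by 0.32 (SE 0.049, limma adjusted p = 1.89e-07), with r = 0.467, and its second probe set had r = 0.259. SLC10A1, which returns bile acids from the blood, rose by 0.17 (SE 0.026, limma adjusted p = 1.15e-07), with r = 0.475. SLCO1A2, an organic anion importer, rose by 0.14 (limma adjusted p = 0.0110). ABCG8, one of the pair of subunits of the sterol exporter to bile, fell by 0.12 (limma adjusted p = 0.00132). With 5 principal components the counts were 1 and 1, beside 2.10% and 0.879% of all probe sets.

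Of the 10 genes of cholesterol supply 5 rose and 1 fell, where 15.6% of all probe sets rose and 8.72% fell. A single falling gene of 10 is no excess over that share. The median slope of the 10 was 0.17. HMGCS1, the synthase at the entry of the mevalonate pathway, rose by 0.40 (SE 0.080, limma adjusted p = 7.41e-05). MSMO1, a sterol demethylating oxidase, rose by 0.28 (SE 0.036, limma adjusted p = 4.17e-10), and its other 2 probe sets had r = 0.25 and 0.407 with CYP7A1. SQLE, the squalene epoxidase, rose by 0.27 (limma adjusted p = 9.09e-06), SC5D, the lathosterol oxidase, by 0.27 (limma adjusted p = 1.60e-08), and FDFT1, the squalene synthase, by 0.23 (limma adjusted p = 2.70e-05). INSIG1, which holds back the processing of sterol regulatory factors, fell by 0.21 (limma adjusted p = 0.0140), and its second probe set had r = -0.211. With 5 principal components 0 rose and 0 fell, beside 2.10% and 0.879% of all probe sets.

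Of the 12 regulators 3 rose and 1 fell with CYP7A1, where 15.6% of all probe sets rose and 8.72% fell. The 1 that fell is no excess over that share. PPARGC1A, a coactivator of the fasting liver, rose by 0.20 (limma adjusted p = 0.00135). INSIG2 rose by 0.16 (limma adjusted p = 0.00389), against the fall of INSIG1. CEBPA rose by 0.15 (limma adjusted p = 0.00322), while its second probe set had r = -0.0126. CEBPB fell by 0.11 (limma adjusted p = 0.00869). HNF4A and NR5A2, nuclear receptors known to act on the CYP7A1 promoter, had slopes of 0.0078 and 0.071 and were not called (limma adjusted p = 0.864 and 0.197). With the array median in the model the counts were 1 and 1, where 5.58% of all probe sets rose and 5.62% fell. With 5 principal components they were 2 and 0, where 2.10% rose and 0.879% fell.

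**Figure D4:**
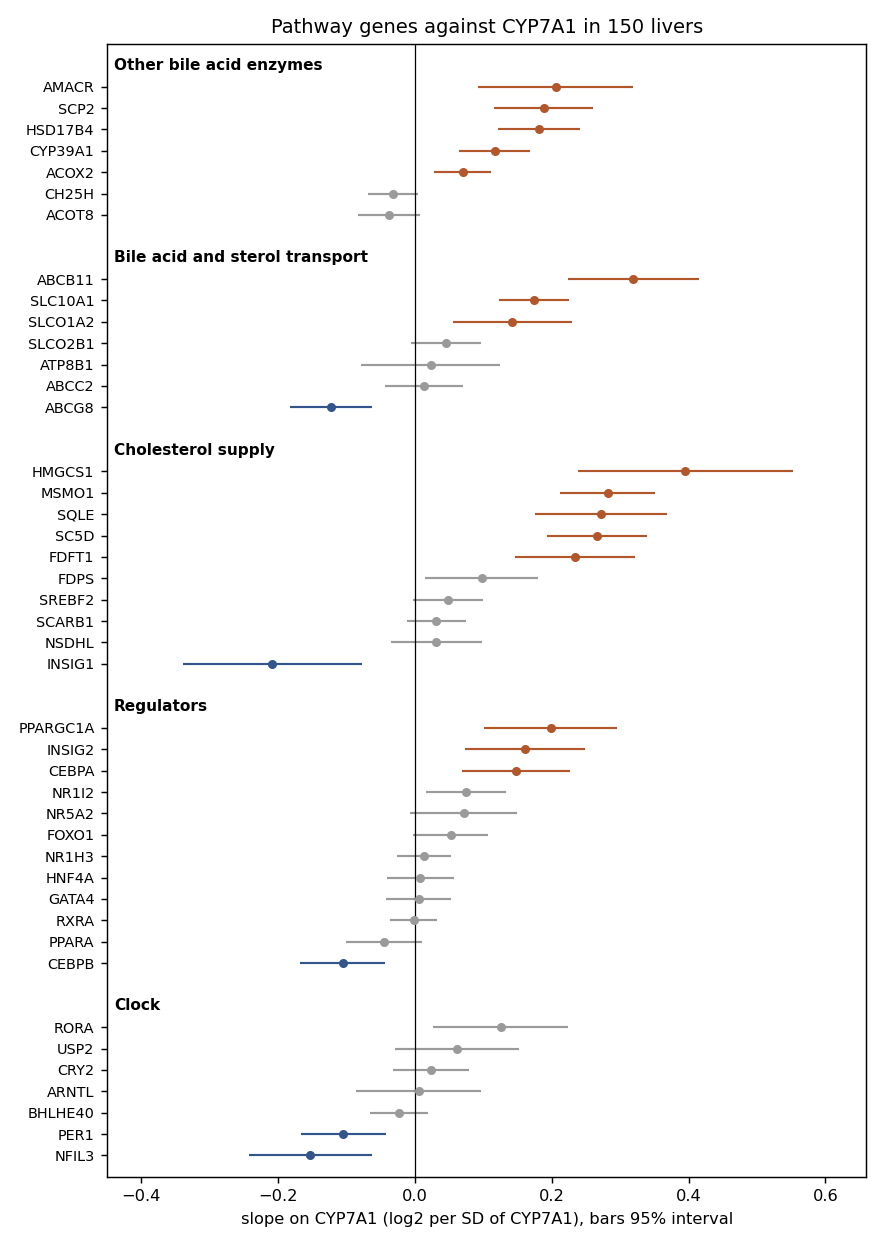
Slope on CYP7A1 (x axis, log2 per SD of CYP7A1) of each measured gene of 5 lists (y axis) over 150 livers, with 95% intervals; orange genes were called higher, blue genes lower, grey genes neither. The called enzymes of bile acid synthesis all lie above 0, the largest slope of cholesterol supply is that of HMGCS1 (0.40), and INSIG1 (-0.21) lies on the other side.

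Of 37 measured markers of cell types 4 rose and 2 fell with CYP7A1, where 15.6% and 8.72% of all probe sets did. Of the 5 hepatocyte markers 1 rose, TTR, by 0.027 (limma adjusted p = 0.00165). GLUL of pericentral (slope 0.14) and CPS1 of periportal hepatocytes (0.074) each rose, 1 of 3 and 1 of 4 markers. The other periportal markers went both ways and were not called, with slopes of -0.30 for SDS, -0.13 for PCK1 and 0.022 for ASS1. HBB of red blood cells rose by 0.17 (1 of 2), CD14 of macrophages fell by 0.069 (1 of 3), and FABP4 of adipocytes fell by 0.11 (1 of 3, the other 2 having slopes of 0.0081 and 0.0044). On the lists for bile duct, stellate cells and fibroblasts, endothelium, T and NK cells, and B and plasma cells 0 markers were called on CYP7A1. On DBP 4 of the 37 markers rose and 1 fell, where 8.97% and 11.9% of all probe sets did. The first count is close to its share and the second below it. OAT, DES, CDH5 and CD8A rose with DBP and PCK1 fell, each the only called marker of its list. The other pericentral markers, GLUL and CYP2E1, had slopes of -0.039 and -0.019 on DBP, and of the 4 periportal markers 2 had a positive slope. The part of cell composition in the relations above was not tested.

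The genes whose pattern over the 150 livers was most like that of CYP7A1 were MEIS1 (r = 0.645), MBP (0.587), DPYS (0.584), CITED2 (0.560) and TMEM25 (0.550). MEIS1, a homeobox transcription factor, has a second probe set, which had r = 0.619. DPYS, the dihydropyrimidinase of pyrimidine breakdown, has 2 others, which had r = -0.224 and 0.385, and the other 3 of MBP, myelin basic protein, had r = 0.557, 0.420 and 0.0882. The genes most opposite to CYP7A1 were IL4R (r = -0.623), PLIN2 (-0.617), POLR3D (-0.567), RASSF1 (-0.558) and AGPAT3 (-0.553). Other probe sets of POLR3D had r = -0.247 and -0.260. PLIN2, the coat protein of lipid droplets, fell by 0.53 per SD of DBP (limma adjusted p = 1.39e-08) and had a slope of -0.32 on fat area that was not called (limma adjusted p = 0.0637). The second probe set of IL4R, the interleukin 4 receptor, had r = -0.083, and that of AGPAT3, an acyltransferase of phospholipid synthesis, r = -0.541. Without the arrays that stood apart these 10 correlations kept their signs, MEIS1 at 0.659 and PLIN2 at -0.603.

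CYP8B1 was most like ATF5, a stress-response transcription factor (r = 0.489), MFSD9 (0.482) and SIK2, a salt-inducible kinase (0.481), and most opposite to MAP1A (-0.443), HSD17B8 (-0.429) and DHDH (-0.424). The probe set of SIK2 averaged 5.38 and that of MAP1A 5.51, both dim like CYP8B1. The fit on CYP8B1 called 4077 probe sets at first, 440 after quantile normalization and 581 with the array median in the model. These correlations were not repeated under those 2 settings. The second probe set of MFSD9 had r = -0.264, and the other 2 of MAP1A had r = 0.0685 and 0.275, so these partners belong to single probe sets.

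CYP27A1 set 1 was most like DECR2, a peroxisomal reductase of fatty acid breakdown (r = 0.592, second probe set 0.577), ANG, the secreted ribonuclease angiogenin (0.534), and ITIH1, a plasma protein made in liver (0.534). It was most opposite to STT3A, a subunit of the oligosaccharyltransferase (-0.568), SRP14 of the signal recognition particle (-0.550) and SCPEP1, a carboxypeptidase (-0.518). The second probe sets of ITIH1, STT3A and SCPEP1 had r = 0.319, -0.406 and -0.317 with set 1. DECR2 and ANG were also near set 3 (r = 0.548 and 0.549). The partners of set 3 were named after its values were seen. Set 3 was most like ALDH4A1 of proline breakdown (0.712), HOGA1 of hydroxyproline breakdown (0.688) and SDHA of the respiratory chain (0.680). The same probe sets had r = 0.433, 0.261 and 0.173 with set 1. Most opposite to set 3 were YWHAE (-0.593), FARSB (-0.570) and the chaperone HSP90B1 (-0.556). The second probe sets of ALDH4A1, HOGA1, SDHA and HSP90B1 had r = 0.383, 0.410, 0.476 and -0.345 with set 3.

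**Figure D5:**
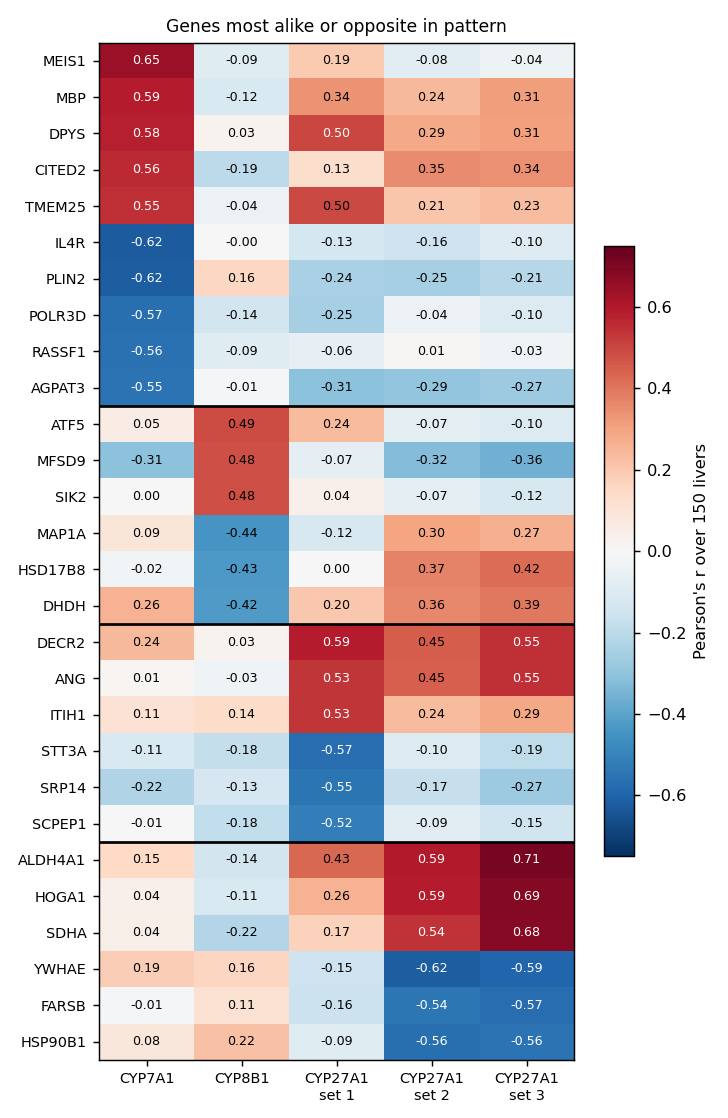
Pearson's r over 150 livers between the 5 probe sets of bile acid genes (x axis) and the genes most alike or opposite in pattern (y axis), coloured from blue (negative) to red (positive); black lines part the genes chosen for CYP7A1, CYP8B1, CYP27A1 set 1 and CYP27A1 set 3. Partners of CYP7A1 such as MEIS1 (0.645) are weak for CYP8B1 (-0.0904), and ALDH4A1 has r = 0.712 with set 3, 0.595 with set 2 and 0.433 with set 1.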

How the data were processed

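Liver RNA of 150 pigs was measured on 1 array each. Log2 signals were used as the authors deposited them, the scale being read from the values. Per the submitters' processing notes GCOS 1.1.1, the software of the scanner, was used; which summary and normalization steps were applied is not given in the sources used here. Of 24123 probe sets, 124 controls were left out. Symbols came from the array annotation, with 10069 probe sets of 1 symbol (9961 matched by Entrez ID to the pig gene table), 198 of several and 13732 of none; no coordinates are given, since the files name no build.

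Slopes per SD of DBP, of a trait or of a member's brightest probe set were fitted over all probe sets, those of the x gene left out, with limma 3.58.1 (lmFit, eBayes with trend) in R 4.3.3, two-sided, Benjamini-Hochberg adjusted. A gene of a list counted once, by its brightest probe set. Single correlations (51) had permutation tests of 100000 resamples (scipy 1.17.1), with the adjusted p over all probe sets taken from limma. The script was tested on simulated data. Named genes were the members, DBP, the 5 genes of highest and lowest r with CYP7A1 (3 for the others), and up to 4 called genes per list, with further genes named after their values were seen. Members and lists were chosen with earlier results of these data known. Alternatives were quantile normalization, filters (mean above 6, SD above 0.25), eBayes settings, normal scores, covariates (array median, title number, EIF1AY, beta-actin 3 prime minus 5 prime, 5 principal components) and samples left out. The second beta-actin pair, the fits on array measures, the cell marker fits and the list counts by setting were added after seeing the data.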

Additional observations from a re-analysis of the deposited data

How the results depend on the processing

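Of 513 slopes of members refitted under alternatives, 469 kept their direction and side of the threshold, 15 lost the call, 4 gained it and 25 turned sign, 1 of them called before and 0 called after. The count of members called on DBP, 4 at first, was 0 with 5 principal components and 2 without the arrays that stood apart, while the share of all probe sets called moved from 20.9% to 3.76% and 9.6%. On CYP7A1 it moved from 1 to 0 with 5 principal components, without those arrays, and with the filter on SD above 0.25, which removed CYP27A1 set 1, and to 2 with the array median or, added after seeing the data, the second beta-actin pair as a covariate; the share of all, 24.3% at first, was then 2.98%, 19.3%, 39.8%, 11.2% and 24.7%. On CYP8B1 it moved from 0 to 1 with the beta-actin difference (17% and 18.3% of all). On CYP27A1 it moved from 1 to 0 with the array median, 5 principal components, without the arrays that stood apart, without the 2 extreme pigs, and with the probe set of highest SD (21.9% of all at first, then 12.6%, 11.7%, 26.3%, 26.1% and 28.4%). The correlation of CYP8B1 with DBP was -0.160 without the arrays that stood apart (permutation p = 0.0624). Other causes of these changes were not tested.

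Slopes that turned sign with 5 principal components were CYP8B1 on DBP (0.0071), on fat area (0.0086) and on fat area minus drip loss (0.0079), CYP7A1 on drip loss (-0.082), and CYP27A1 sets 2 and 3 on CYP7A1 (-0.024 and -0.0053). Without the arrays that stood apart they were CYP8B1 on fat area (0.010, r = 0.0327) and CYP7A1 on drip loss (-0.0065, r = -0.00434). With the array median they were CYP7A1 on drip loss (-0.052), CYP27A1 set 1 on CYP8B1 (-0.0035) and CYP8B1 on CYP27A1 (-0.0048). With the spline of the title number, slopes on drip loss were -0.039 for CYP7A1 and -0.022 and -0.028 for CYP27A1 sets 2 and 3, and set 1 on fat area minus drip loss was 0.016. With blocks of title numbers they were -0.022 and -0.029 for sets 2 and 3 on drip loss, 0.016 for set 1 on fat area minus drip loss, and -0.0016 and -0.012 for sets 2 and 3 on fat area with DBP. On the last, set 3 was -0.0028 after quantile normalization and -0.0051 with normal scores. Without 2 pigs, set 3 on drip loss was -0.0026 (r = -0.00716) and CYP7A1 on CYP8B1 0.098. With the probe set of highest SD, CYP8B1 on CYP27A1 was -0.057.

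The count of all probe sets called ran from 903 to 7345 on DBP (5012 at first), 714 to 6521 on CYP7A1 (5836), 14 to 6715 on CYP8B1 (4077) and 2256 to 6825 on CYP27A1 (5260). On fat area it ran from 1 probe set, with EIF1AY in the model, to 0.425% of them (30 at first). With DBP in the model it ran from 0, again with EIF1AY, to 33 (4), and on the trait difference from 0 to 13 (2). Quantile normalization moved the split of higher and lower calls from 2153 and 2859 to 3990 and 3355 on DBP, from 3743 and 2093 to 2660 and 2918 on CYP7A1, from 2639 and 1438 to 209 and 231 on CYP8B1, and from 3305 and 1955 to 2498 and 2791 on CYP27A1. The filter on a mean above 6 removed CYP8B1 as a tested probe set, though it still served as x. DBP, CYP7A1 and CYP8B1 have no other probe set to take as x.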
